A study of Mus musculus with 5 samples.

Results

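Genes for fatty acid uptake and binding were examined in mouse Akt/Notch liver tumours with and without late Prox1 overexpression (OE). The set holds 10 named genes, named for their function with earlier results of these data known, out of 55397 genes listed and 17105 tested. They comprise the intracellular binding proteins Fabp1, Fabp2, Fabp5 and Fabp7, the membrane uptake proteins Cd36, Slc27a1, Slc27a2 and Slc27a4, and the secreted lipases Lpl and Lipc. All 10 genes passed the filter on low values.

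Fatty acids reach the liver bound to albumin or inside lipoproteins, from which lipoprotein lipase and hepatic lipase release them by cleaving triglyceride. CD36 and the fatty acid transport proteins of the SLC27 family help them across the plasma membrane, and the SLC27 proteins also activate them by joining them to coenzyme A. Inside the cell, small fatty acid binding proteins carry them through the cytosol, with the liver type, FABP1, being among the most abundant hepatocyte proteins, and the intestinal (FABP2), epidermal (FABP5) and brain (FABP7) types named after other tissues.

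Tumours were raised in female C57BL/6N mice by hydrodynamic tail vein injection at 8 weeks of age, a method that delivers plasmids mainly to hepatocytes. Every mouse received Sleeping Beauty transposase under a CMV promoter with transposons for Akt and for the Notch1 intracellular domain (NICD) with the doxycycline-dependent activator rtTA, both driven by EF1a. The Control mice also received a doxycycline-inducible GFP transposon with no other insert, and the Prox1 OE mice one for FLAG-tagged mouse Prox1 and GFP. The diet with 6.25% doxycycline, from day 21, was given to induce Prox1 from week 3 to 4, and the labels give collection after that week or at the humane endpoint, while the study describes its RNA-seq mice as being at the endpoint. Bulk RNA-seq was available for 2 Control and 3 Prox1 OE tumour samples. The labels do not tie samples to separate animals, so p-values measure the spread between these samples, which may be technical.

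Libraries held 48740863 to 56629477 reads in genes, so 3 reads amounted to 2.46 to 3.54 normalised counts (reads divided by the size factor of the library). Prox1 itself measured 4153 and 4664 normalised counts in Control 1 and 2, and 48090, 11113 and 8231 in Prox1 OE 1, 2 and 3. The Control values were exceeded in each of the 3 Prox1 OE libraries, but the spread among them left the change at 1.90 on the log2 scale with an adjusted p of 0.061 (limma). Of 10 hepatocyte markers, 8 were called higher and none lower in Prox1 OE, with a summed level of 1059651 and 1590764 in Control and of 3267303 to 4664208 in Prox1 OE. Of 8 cholangiocyte markers, 7 were called lower, with a summed level of 827805 and 758511 in Control and of 523657 to 707556 in Prox1 OE. Krt19 measured 8442 and 10790 in Control against 1643, 1968 and 1785 in Prox1 OE, a steeper fall than that of the sum. The markers of both cell types were thus present in every tumour, and the part of these shifts in the results that follow was not tested. In bulk samples, a change in the number of cells of a type and a change in RNA per cell cannot be told apart.

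The stretches before the start sites of 3 binding protein genes are shown because the family held the members with the largest rise and one that was not called. They were read from the RefSeq promoter table (GRCm38.p6, plus strand), which had entries for 8 of the 10 genes in 11 windows and none for Fabp5 and Lpl. Positions count back from the RefSeq start site, and each stretch ends before the earlier of the RefSeq and GENCODE starts. Capitals mark a match to a direct repeat of nuclear receptor half-sites, 2 copies of AGGNCA with 1 base between them, or to an HNF4-type core, CAAAGTNCA, on either strand. These letters were chosen after the values were seen, knowing that an element of the first kind has been described before Fabp1.
Fabp1, chr6:71199629-71199826: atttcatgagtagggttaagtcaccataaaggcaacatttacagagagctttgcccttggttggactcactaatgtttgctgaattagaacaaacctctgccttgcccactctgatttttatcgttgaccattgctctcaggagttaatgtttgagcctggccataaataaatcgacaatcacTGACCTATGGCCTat
Fabp2, chr3:122894822-122895071: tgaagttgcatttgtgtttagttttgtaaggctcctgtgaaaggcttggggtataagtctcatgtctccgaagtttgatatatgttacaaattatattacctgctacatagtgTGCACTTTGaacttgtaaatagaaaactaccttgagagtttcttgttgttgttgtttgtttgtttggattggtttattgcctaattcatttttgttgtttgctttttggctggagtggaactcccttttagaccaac
Fabp7, chr10:57784673-57784880: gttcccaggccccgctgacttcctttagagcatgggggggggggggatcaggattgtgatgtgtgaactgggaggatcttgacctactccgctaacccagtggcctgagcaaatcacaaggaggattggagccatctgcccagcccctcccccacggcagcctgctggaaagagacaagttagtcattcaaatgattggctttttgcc

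The Fabp1 repeat, on the minus strand, lay at -67 to -55, and 0.381% of the 32851 promoter windows of 300 bases held such a match. The Fabp2 core, also on the minus strand, lay at -137 to -129, and 1.41% of windows held one. No other window of the set matched either. The shorter half-site AGGTCA, which overlaps the repeat, was found in windows of Fabp1, Fabp7, Cd36, Slc27a2 and Lipc and in 16.3% of all windows. A Prospero-type core, AAGACG, was in no window of the set and in 5.4% of all windows. A match is a string of letters and not a measured site.

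In Prox1 OE tumours, 7 of the 10 genes were called higher (limma, adjusted p under 0.05 over all genes tested), 1 was called lower and 2 were not called. Over all genes tested, 33.3% were called, 17.1% higher and 16.2% lower. The groups did not overlap for 9 of the 10 genes, which held for 63.3% of all genes tested. The median log2 fold change was 1.01 for the 10 genes and -0.02 for all genes. Scaling to the total count moved the latter to -0.44, and 8.62% of all genes tested were then called higher and 39.9% lower. Of the 10 genes, 6 were called higher and 2 lower on that scale, Lpl losing its call and Slc27a1 being called lower. Without Control 1, 4 of the 10 genes were called higher and 0 lower, and the genes called in all fell from 5702 to 1158. Without Control 2, 6 were called higher and 0 lower, among 2270 genes called.

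**Figure D1:**
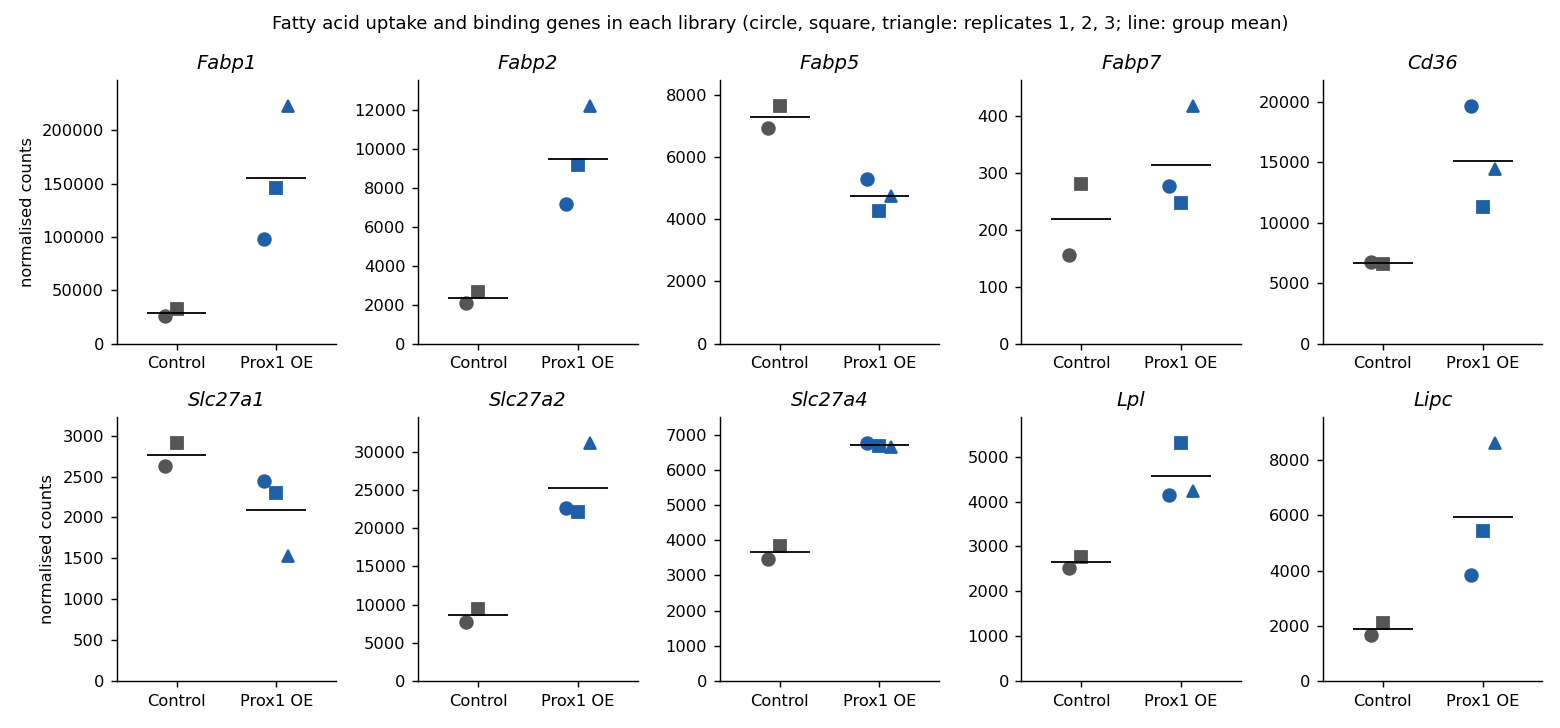
Level of each gene in each library, in normalised counts on a linear axis from 0 (circles, squares and triangles are replicates 1, 2 and 3, and lines are group means). The 3 Prox1 OE libraries lie above both Controls for 7 genes and below both for Fabp5 and Slc27a1, and the groups overlap for Fabp7.

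Among the binding proteins, Fabp1 (ENSMUSG00000054422, GRCm38 chr6:71199827-71205023) is the liver type. It measured 25763 and 32384 normalised counts in Control 1 and 2 and 98138, 145477 and 222634 in Prox1 OE 1, 2 and 3. The lowest Prox1 OE library was 3.03 times the highest Control, and the Prox1 OE libraries themselves spanned 2.27-fold. Its log2 fold change was 2.35 ± 0.34 (SE; 95% interval 1.56 to 3.13), with an adjusted p of 0.0035 by limma. The library with the most Prox1 reads, Prox1 OE 1, had the least Fabp1 of the 3.

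Fabp2 (ENSMUSG00000023057, chr3:122895072-122899506) is the intestinal type. Control libraries held 2076 and 2636 normalised counts, and Prox1 OE libraries 7166, 9153 and 12205. All 3 were above both Controls, in the same order of libraries as for Fabp1. On the log2 scale Fabp2 rose by 1.99 ± 0.22 (limma adjusted p 0.0025). The enterocyte markers Sis and Alpi had no read in any library, and of the 3 enterocyte markers of 8 that could be tested none was called higher and 2 were called lower, the summed level being 15163 and 10679 in Control and 11097 to 13605 in Prox1 OE. An antisense gene overlaps Fabp2, at a mean of 3.25 normalised counts.

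Fabp5 (ENSMUSG00000027533, chr3:10012548-10016607), the epidermal type, went the other way. It measured 6935 and 7627 normalised counts in Control and 5275, 4246 and 4737 in Prox1 OE. Every Prox1 OE library was below both Controls, and the groups did not overlap. The log2 fold change was -0.62 ± 0.13 (95% interval -0.92 to -0.31, limma adjusted p 0.012). With a single Control left in the fit, the value was -0.69 without Control 1 (adjusted p 0.078) and -0.55 without Control 2 (adjusted p 0.11). Scaled to the total count it was -1.05 (adjusted p 0.0015). Of the 8 keratinocyte and basal epithelium markers, 3 could be tested and 1 was called lower, and their summed level was 250.6 and 576 in Control and 188 to 237 in Prox1 OE. Of 10 stellate cell and fibroblast markers, 3 were called lower and 2 higher, and their summed level was lower in Prox1 OE (57924, 67150 and 57967) than in Control (100716 and 98790). Their part in the lower level of Fabp5, and in those of Slc27a1, Rbp7 and Cavin1 given further on, was not tested. A processed pseudogene of Fabp5 was close to no signal, at a mean of 1.01 normalised counts.

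Fabp7 (ENSMUSG00000019874, chr10:57784881-57788450), the brain type, was the least abundant of the 10. Values were 156 and 281 normalised counts in Control and 277, 248 and 418 in Prox1 OE. The ranges overlapped, since Control 2 exceeded 2 of the Prox1 OE libraries. Its log2 fold change was 0.54 with a 95% interval of -0.20 to 1.29 (limma adjusted p 0.22), so changes from a slight fall to more than a doubling were within the error. The value was 0.12 without Control 1, 0.97 without Control 2, 0.32 without Prox1 OE 3, 0.11 when scaled to the total count and -0.72 relative to hepatocyte markers, and it was called under none of these. Of 8 glial markers, 6 could be tested and 2 were called lower, their summed level being 8254 and 9829 in Control and 5463 to 6466 in Prox1 OE.

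Fabp1 and Fabp5 thus moved apart, which can be read within each library and does not depend on how libraries are scaled to each other. The log2 ratio of Fabp5 to Fabp1 was -1.89 and -2.09 in Control and -4.22, -5.10 and -5.55 in Prox1 OE. The difference of -2.97 corresponded to a 7.82-fold fall of Fabp5 relative to Fabp1, and the 3 Prox1 OE libraries were all below both Controls. An exact two-sided permutation test over the libraries gave p = 0.1, the smallest that 2 against 3 samples allow, and 0.125 after Benjamini-Hochberg adjustment over the 5 ratios tested. For Fabp7 to Fabp1 the difference was -1.80, with the same exact p and adjusted value.

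Per kilobase of transcript, the unit in which different genes can be compared, Fabp1 made up 76.3% and 79.4% of the summed level of the 9 measured FABP genes in Control and 91.3%, 93.0% and 94.4% in Prox1 OE. Fabp5 held 11.5% and 10.5% of it in Control and 2.75%, 1.52% and 1.13% in Prox1 OE. The share of Fabp2 stayed within 2.97% to 3.82% in all 5 libraries. Fabp4, the adipocyte type, was not called (log2 fold change 0.08, limma adjusted p 0.79), while its share was 7.91% and 5.74% in Control and 1.35% to 1.93% in Prox1 OE. The shares were computed after the values were seen, and they depend on the transcript length used. With all annotated exons merged, which adds retained introns to Fabp5, its share became 3.74% and 3.31% in Control and 0.789%, 0.432% and 0.318% in Prox1 OE. Fabp1 then held 89.6% and 90.5% in Control and 94.6%, 95.6% and 96.3% in Prox1 OE, a smaller difference, and Fabp4 held 1.85% and 1.31% in Control and 0.274% to 0.397% in Prox1 OE.

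**Figure D2:**
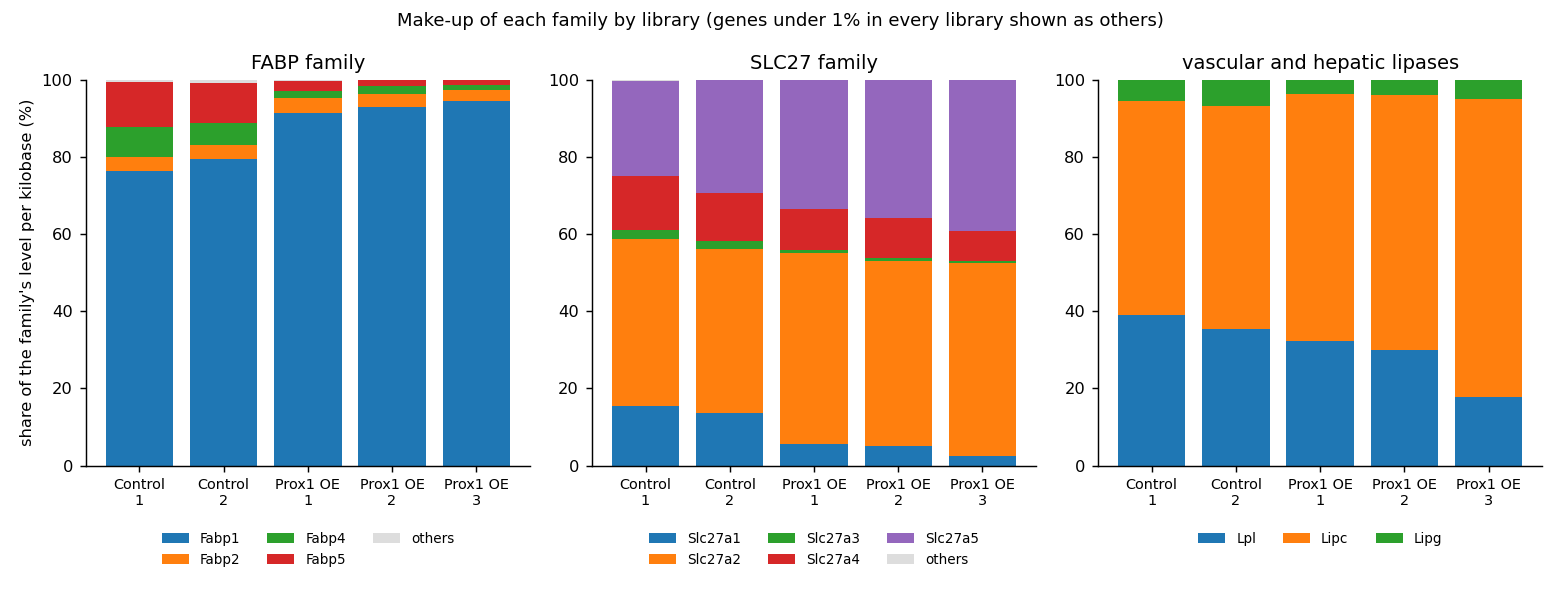
Share of each gene in the summed level per kilobase of its family, in percent, for each of the 5 libraries (stacked bars, principal transcript lengths, genes under 1% in every library drawn together as others). Fabp1 widens from 76.3% and 79.4% in Control to between 91.3% and 94.4% in Prox1 OE, and Slc27a1 narrows from 15.3% and 13.7% to between 2.55% and 5.56%; with merged exons Fabp1 starts at 89.6% and 90.5%.

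Among the uptake proteins, Cd36 (ENSMUSG00000002944, minus strand, chr5:17781690-17888801) is a scavenger receptor and fatty acid translocase of macrophages, endothelium and, at lower levels, hepatocytes. It measured 6781 and 6611 normalised counts in Control and 19626, 11263 and 14466 in Prox1 OE. The Controls lay close together and all Prox1 OE libraries above them. On the log2 scale Cd36 rose by 1.14 ± 0.22 (limma adjusted p 0.0086). With 1 Control left in the fit the change was much the same but not called, at 1.16 without Control 1 (adjusted p 0.070) and 1.12 without Control 2 (adjusted p 0.059). Scaled to the total count it was 0.71 (adjusted p 0.028), and relative to hepatocyte markers -0.12.

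Macrophage markers moved in the same direction as Cd36. Of 10 such markers, 5 were called higher and none lower, and their summed level was 21615 and 21992 in Control and 41636, 33765 and 44006 in Prox1 OE. Relative to the mean log2 level of these markers in the same library, Cd36 differed by 0.27 between the groups, which overlapped. Relative to 10 endothelial markers, of which 2 were called higher and 1 lower, Cd36 was 1.02 higher in Prox1 OE with no overlap. The part of macrophages in the Cd36 result was not tested.

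Slc27a2 (ENSMUSG00000027359, chr2:126552407-126588243), known as FATP2, is a main transporter and very-long-chain acyl-CoA synthetase of hepatocytes. Its level was 7748 and 9419 normalised counts in Control and 22701, 22139 and 31127 in Prox1 OE. The groups were well apart, with the lowest Prox1 OE library at 2.35 times the highest Control. The log2 fold change was 1.55 ± 0.19 (95% interval 1.11 to 1.98, limma adjusted p 0.0026).

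Slc27a4 (ENSMUSG00000059316, chr2:29802634-29817522), FATP4, is expressed in many tissues and prominently in the small intestine. It measured 3476 and 3847 normalised counts in Control and 6757, 6683 and 6670 in Prox1 OE. The 3 Prox1 OE libraries agreed to within a factor of 1.01, the tightest of the 10 genes, and lay above both Controls. On the log2 scale the rise was 0.87 ± 0.11 (limma adjusted p 0.0027). It was 0.44 when scaled to the total count (adjusted p 0.022), and relative to hepatocyte markers Slc27a4 was lower in all 3 Prox1 OE libraries, with a mean difference of -0.39.

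Slc27a1 (ENSMUSG00000031808, chr8:71568882-71587302), FATP1, is best known from muscle and adipose tissue. It measured 2625 and 2904 normalised counts in Control and 2440, 2293 and 1522 in Prox1 OE. The groups did not overlap, but the log2 fold change of -0.44 had a 95% interval of -0.92 to 0.05 (limma adjusted p 0.14) and was not called. Of 8 muscle markers, 5 could be tested and 1 was called lower, their summed level being 201.3 and 223 in Control and 111 to 125 in Prox1 OE. With the total count as library size it was called lower, at -0.87 (adjusted p 0.018), while without Prox1 OE 3 the value was -0.22 (adjusted p 0.23).

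Within libraries, Slc27a1 and Slc27a4 both fell behind Slc27a2. The log2 ratio of Slc27a1 to Slc27a2 was -1.56 and -1.70 in Control and -3.22, -3.27 and -4.35 in Prox1 OE, a difference of -1.98. For Slc27a4 to Slc27a2 the difference was -0.68, from -1.16 and -1.29 to -1.75, -1.73 and -2.22. Both ratios were lower in every Prox1 OE library than in either Control, with an exact permutation p of 0.1 (the smallest possible) and 0.125 adjusted.

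Per kilobase, Slc27a2 was the leading member of its family in all 5 libraries, with 43.4% and 42.4% of the summed SLC27 level in Control and 49.6%, 47.7% and 50.04% in Prox1 OE. It was followed by Slc27a5, the bile acid and very-long-chain acyl-CoA synthetase of hepatocytes, at 24.8% and 29.2% in Control and 33.5%, 35.8% and 39.2% in Prox1 OE. Slc27a1 dropped from 15.3% and 13.7% to 5.56%, 5.16% and 2.55%. Slc27a4 held 14.01% and 12.5% in Control and 10.6%, 10.4% and 7.72% in Prox1 OE, so that its share was lower although its level was higher. With merged exons, Slc27a1 held 9.26% and 8.14% in Control and 3.21%, 2.96% and 1.45% in Prox1 OE.

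Of the secreted lipases, Lipc (ENSMUSG00000032207, minus strand, chr9:70798128-70952226) encodes hepatic lipase, made by hepatocytes. It measured 1674 and 2100 normalised counts in Control and 3835, 5424 and 8611 in Prox1 OE. The Prox1 OE libraries spanned 2.25-fold, in the same order as for Fabp1 and Fabp2, and all lay above both Controls. The log2 fold change was 1.59 ± 0.31 (limma adjusted p 0.0086), and without Control 1 it was 1.42 (adjusted p 0.079).

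Lpl (ENSMUSG00000015568, chr8:68880491-68907448) encodes lipoprotein lipase, which adipocytes, muscle and macrophages make and which healthy adult liver makes little of. Its level was 2519 and 2767 normalised counts in Control and 4157, 5297 and 4227 in Prox1 OE. The groups did not overlap, and the lowest Prox1 OE library was 1.503 times the highest Control. On the log2 scale Lpl rose by 0.78 ± 0.14 (limma adjusted p 0.0069), and it fell to 0.35 with the total count as library size (adjusted p 0.12). Without Control 1 it was 0.71 (adjusted p 0.083), and relative to hepatocyte markers -0.48.

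The adipocyte markers Adipoq and Plin1 were at or under 3.39 normalised counts in all libraries and Lep had no read, while 1 of the 2 testable adipocyte markers of 7 was called higher, the summed level being 451 and 403 in Control and 572 to 933 in Prox1 OE. Relative to the macrophage markers in the same library, Lpl differed by -0.09 on the log2 scale, and the groups overlapped. The log2 ratio of Lpl to Lipc was 0.59 and 0.40 in Control and 0.12, -0.03 and -1.03 in Prox1 OE. The difference of -0.81 gave an exact permutation p of 0.2, also after adjustment, and it became -0.45 without Prox1 OE 3. Per kilobase, Lipc held 55.5% and 57.8% of the summed level of Lpl, Lipc and Lipg in Control and 64.0%, 66.0% and 77.2% in Prox1 OE. With merged exons, which add retained introns to Lpl, Lipc held 71.5% and 72.7% in Control and 78.5%, 79.7% and 86.2% in Prox1 OE, and Lpl held 22.1% and 19.7% in Control against 39.0% and 35.5% by the principal transcript.

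**Figure D3:**
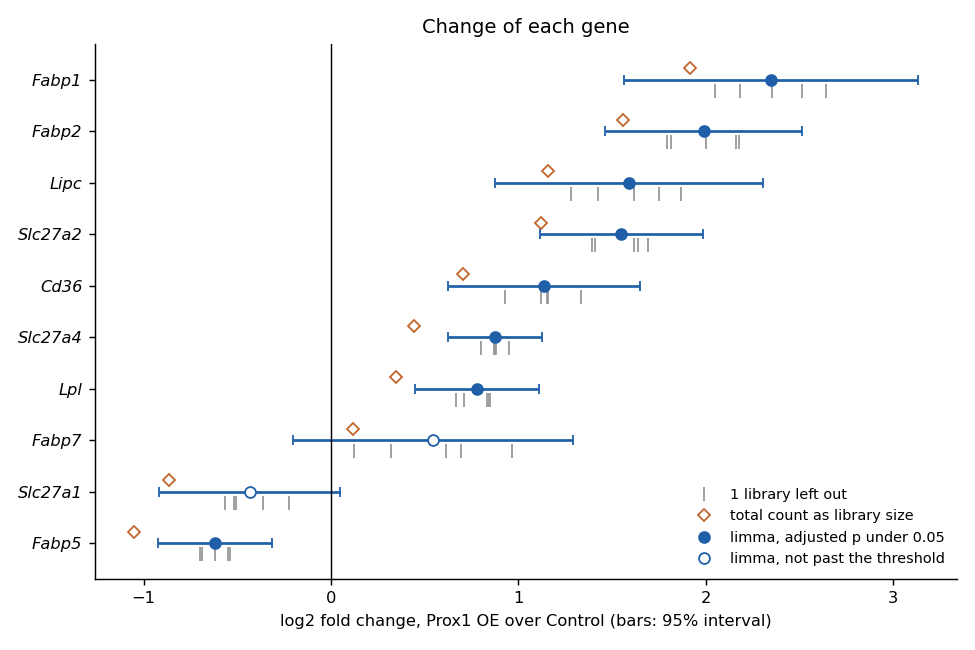
Log2 fold change of each gene, Prox1 OE over Control, with its 95% interval (filled circles passed the limma threshold, open circles did not, grey ticks leave out 1 library each, open diamonds use the total count as library size). Fabp1 at 2.35 and Fabp5 at -0.62 mark the ends, and no direction changes under the settings drawn, although the hepatocyte marker scale described in the text turns Fabp7, Cd36, Slc27a4 and Lpl below 0.

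The order of levels per kilobase of principal transcript differed between the groups. In Control, Fabp1 came first (mean 52574 normalised counts per kilobase), followed by Fabp5 (7377), Slc27a2 (2942), Fabp2 (2442), Cd36 (1970), Slc27a1 (989), Lipc (983), Slc27a4 (903), Lpl (642) and Fabp7 (272). The ranges over libraries overlapped for Slc27a2 and Fabp2, for Slc27a1 and Lipc, and for Lipc and Slc27a4. Within each Control library, Slc27a2 was above Fabp2 and Lipc above Slc27a4 by this length, while Slc27a1 and Lipc changed places. In Prox1 OE, Fabp1 (281042) was followed by Fabp2 (9853), Slc27a2 (8678), Fabp5 (4815), Cd36 (4448), Lipc (3102), Slc27a4 (1653), Lpl (1108), Slc27a1 (746) and Fabp7 (391). There, Fabp2 overlapped Slc27a2, Fabp5 overlapped Cd36, and Cd36 overlapped Lipc. The places of several genes depended on the length used. With merged exons, Fabp5 took place 4 in Control (2041 normalised counts per kilobase) and place 7 in Prox1 OE (1332), and Slc27a1 fell behind Lipc and Slc27a4 in Control (474), while Fabp1 stayed first in both groups. By the principal transcript, Fabp1 ranked 45 of 17094 genes with a length in Control and 14 in Prox1 OE.

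Because hepatocyte markers were higher in Prox1 OE, each gene was also set against the mean log2 level of the 10 hepatocyte markers in the same library, a comparison added after the values were seen. Fabp1 was still higher in Prox1 OE, by 1.09 on the log2 scale, and Fabp2 by 0.73, with no overlap. Slc27a2 was 0.29 higher with no overlap, and Lipc 0.33 higher with overlap. The values for 4 genes turned negative, with overlap for Cd36 at -0.12 and Lpl at -0.48, and without it for Slc27a4 at -0.39 and Fabp7 at -0.72. Slc27a1 at -1.70 and Fabp5 at -1.88 were lower in all 3 Prox1 OE libraries. With these marker means as the scale of a limma fit, Fabp1 (adjusted p 3.3e-05) and Fabp2 (adjusted p 0.031) were called higher, Fabp5 (adjusted p 4.3e-08) and Slc27a1 (adjusted p 4.1e-06) lower, and the other 6 were not called. On that scale the median of all genes was -1.28, and 1.34% of all genes tested were called higher and 73.5% lower, so a lower call there was common to most genes.

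**Figure D4:**
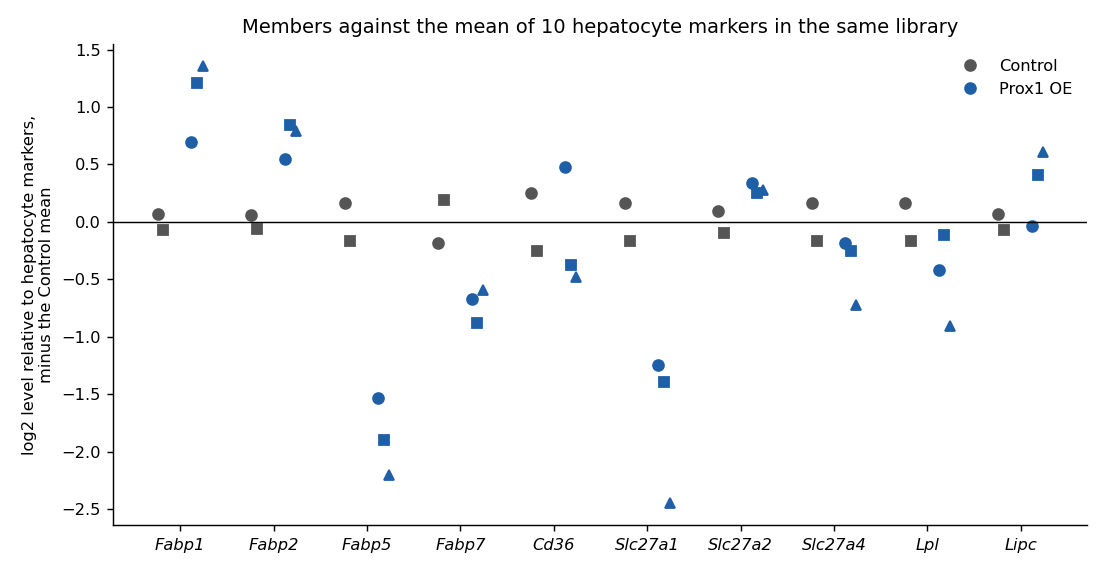
Log2 level of each gene relative to the mean of 10 hepatocyte markers in the same library, with the Control mean set to 0 (grey: Control, blue: Prox1 OE, shapes: replicates). Fabp1 and Fabp2 lie above 0 in all 3 Prox1 OE libraries and Fabp5 and Slc27a1 below, by 1.88 and 1.70 on average.

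The wider pathway was read from 66 other genes listed by role, of which 59 could be tested. Of these, 32 were called higher and 7 lower, with a median log2 fold change of 0.66. Scaled to the total count, these became 23 higher and 14 lower, and on the hepatocyte marker scale 4 higher and 28 lower, so these counts depend on the scale. Without Control 1, 10 were called higher and 2 lower, and without Control 2, 24 higher and 2 lower. Over all genes tested, 17.1% were called higher and 16.2% lower with the deposited scaling, 8.62% and 39.9% with the total count, and 1.34% and 73.5% on the hepatocyte marker scale.

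Among 14 other lipid-binding proteins, 8 could be tested, 4 were called higher and 1 lower. Those higher included Rbp4, the retinol carrier secreted by hepatocytes (log2 fold change 1.67), Scp2, a peroxisomal sterol carrier and thiolase (1.40), and Dbi, the acyl-CoA binding protein (1.01). Rbp7, a retinoid binding protein of endothelium and fat, fell by 1.10 on the log2 scale.

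Among 9 other uptake proteins, 4 were called higher and 1 lower. Mfsd2a, a transporter of lysophosphatidylcholine with bound fatty acid, measured 1095 and 1162 normalised counts in Control and 3981, 6021 and 6338 in Prox1 OE, a rise of 2.24 on the log2 scale (adjusted p 0.0019 by limma). Slc27a5 rose by 1.78 and Got2, the mitochondrial aspartate aminotransferase also described as a plasma membrane fatty acid binding protein, by 1.12. Cavin1, a coat protein of caveolae, fell by 0.60. Among 6 acyl-CoA synthetases, which trap fatty acids in the cell, Acsl5 (1.31) and Acsl1 (1.07) were higher and Acsbg1, a form typical of brain, was lower. Acsbg1 measured 507 and 1489 in Control and 269, 38 and 45 in Prox1 OE, and the change was -3.47 ± 0.84 on the log2 scale (adjusted p 0.019 by limma).

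Of 16 partners and inhibitors of the lipases, 10 were called higher and 1 lower. Both activators and inhibitors were among them. The LPL inhibitors Angptl8 (1.97), Apoc3 (1.96) and Angptl4 (0.98, limma adjusted p 0.014) were higher, as was Apoc1 (1.95), another inhibitor, and so was Apoa5 (1.92), which promotes LPL action. Gpihbp1, which carries LPL to the capillary wall, was not called (0.39, adjusted p 0.26). Of 5 lipoprotein receptors, all were called: Lrp1 (0.78) was among 3 that were higher, and Vldlr (-1.05) and Sort1 (-0.80), which sorts lipoproteins and lipases in the cell, were the 2 that were lower.

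Of 16 transcriptional regulators of the pathway, 9 were called higher and 1 lower. Hnf4a, a central hepatocyte factor, measured 8414 and 10194 normalised counts in Control and 19482, 18576 and 24052 in Prox1 OE (log2 fold change 1.15, limma adjusted p 0.0033). The nuclear receptors Nr1i3 (1.66), Nr1h3 (1.63) and Nr1i2 (1.06) were also higher. Pparg, the fat cell regulator that promotes Cd36, Fabp4 and Lpl transcription, rose by 0.85 (adjusted p 0.012). Ppara, the fatty acid sensor that promotes Fabp1 transcription in hepatocytes, measured 767 and 611 in Control and 1577, 725 and 971 in Prox1 OE. Its groups overlapped and it was not called (0.60, adjusted p 0.17).

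**Figure D5:**
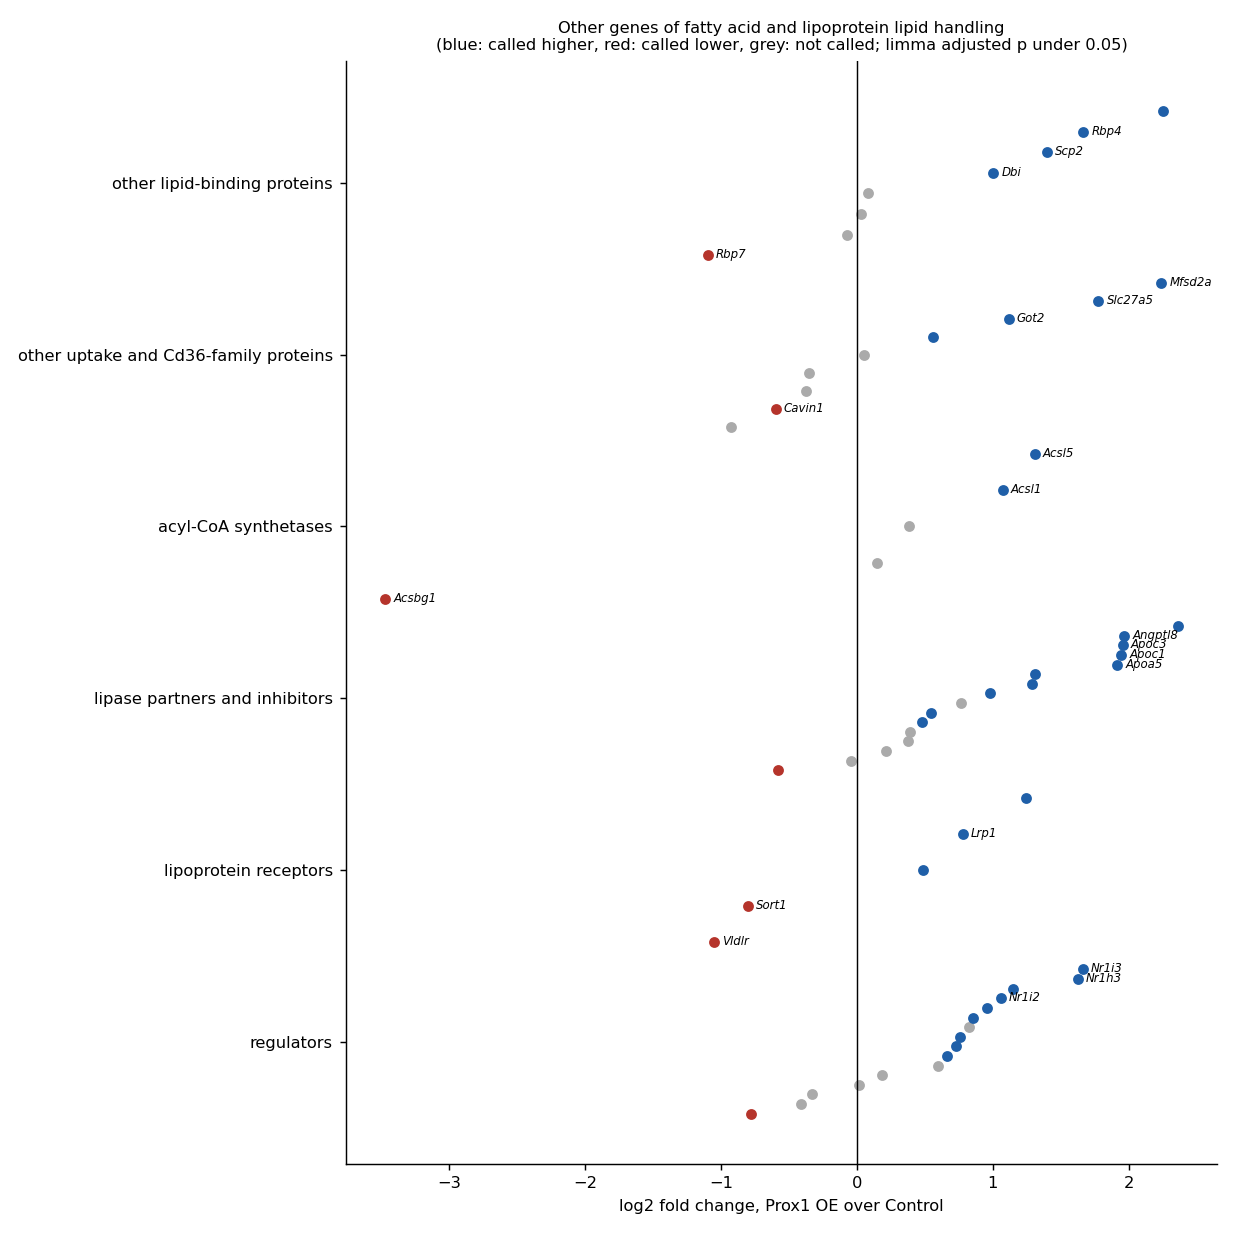
Log2 fold change, Prox1 OE over Control, of the 59 tested pathway genes by role (each point a gene: blue called higher, red called lower, grey not called). Lipase partners and regulators lie mostly to the right with the deposited scaling, while on the hepatocyte marker scale 28 were called lower and 4 higher, where 73.5% of all genes tested were called lower.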

How the data were processed

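Bulk RNA-seq (dUTP, paired-end, 100 bases) of 2 Control and 3 Prox1 OE tumours was used. The authors aligned reads to mm10 with STAR and deposited a signal table of normalised counts, that is, read counts per gene divided by DESeq2 size factors. The counting tool, strand setting and annotation were not given in the sources used here. The authors' comparison table (shrunken log2 fold changes and p-values) was not used. Dividing each library by its step returned whole reads for 100.0% of values (tolerance 0.01), and edgeR on these called 5752 genes. Genes with a mean of at least 10 were tested with limma 3.58.1 in R 4.3.3 on log2(value + 1), with a mean-variance trend and Benjamini-Hochberg adjustment. This scale understates changes of low genes. The script was tested on simulated data. Coordinates and lengths (the longest principal transcript) came from GENCODE M21 on GRCm38, to which 55137 gene identifiers matched (99.53%). Genes were named by a rule: all 10 members, Prox1, Ppara, Pparg, Hnf4a, Gpihbp1, Angptl4 and, from each role list, up to 4 called genes of largest change with a mean of at least 100, of which some are not reported here. The members and lists were chosen with earlier results of these data known. Alternatives were edgeR 4.0.16 and DESeq2 1.42.0 on the recovered reads, other scalings, pseudocounts and filters, a replicate block, and each library left out.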

Additional observations from a re-analysis of the deposited data

How the results depend on the processing

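Over 16 alternatives planned for each of the 10 genes, 152 of 160 values kept direction and call, 7 lost the call, 1 gained it and none reversed. Of these 152, 16 were of Fabp7 and 15 of Slc27a1, which were not called in the main fit. All losses came from leaving out a Control, except that of Lpl with the total count. With the total count as library size, 2 members and 14 pathway genes were called lower, among 8308 genes called in all (39.9% of those tested lower), and without the limma trend 4 pathway genes were. A scale set by the hepatocyte marker mean, chosen after seeing the data, called 2 members higher and 2 lower, 12807 of 17105 genes in all (73.5% of those tested lower), and 4 pathway genes higher and 28 lower. It reversed Fabp7 (-0.72), Cd36 (-0.12), Slc27a4 (-0.39) and Lpl (-0.48), and Slc27a2 (0.29) and Lipc (0.33) lost their calls. Marker genes that change themselves set this scale.

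Leaving out 1 library in turn gave 4 to 7 members higher, 0 to 1 lower, 1158 to 7491 genes called in all, and 10 to 35 pathway genes higher and 2 to 8 lower. The lowest counts came without Control 1, which left 1 Control assumed to vary like Prox1 OE. Without Control 2, 6 members were higher and none lower, with 2270 genes called. Neither count of 0 turned the direction of Fabp5, the member otherwise called lower, which was -0.69 and -0.55 by limma (adjusted p 0.078 and 0.11). The 5 ratios kept their direction under every pseudocount and library left out.

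The replicate block, which drops Prox1 OE 3, called 7 members higher and 1 lower, and 5246 genes in all, and it changed no member's call. After subtracting the group mean of each gene, the deviations of same-numbered libraries correlated at 0.137 and 0.016, so the numbers were not taken as pairs. The 2 Controls deviate by equal and opposite amounts, so these 2 values are not independent. Depth limits none of the 10 genes, since the lowest value, 156 normalised counts, was far above 3 reads.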
